A study of Arabidopsis thaliana with 4 samples.

Results

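The 10 genes described here make or control glucosinolates in Arabidopsis thaliana. They were chosen by locus identifier, after the model suffix was removed, from the 33602 gene models counted in each library. All 10 were found and all 10 passed the filter on low counts. RNA was taken from aerial organs of soil-grown plants at Boyes stage 1.09, kept at 18 to 21 °C, 50 to 70% humidity and up to 90 µE of light per square metre and second, without treatment. The mutant group was the knock-out otp90, a single line named SM_3_29659, with 2 libraries, and the control group was the wild type Col-0, also with 2. Expression of the disrupted gene itself was not analysed here, and the genotype labels therefore have no check from it. Whether libraries of one genotype share plants is not in the labels, and the p-values then describe only how these 4 libraries scatter, which may be a technical spread.

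Glucosinolates are sulfur-rich defence compounds of the cabbage order, stored in leaves and split by the enzyme myrosinase when tissue is damaged. Aliphatic glucosinolates start from methionine, whose side chain is first lengthened, and indolic ones start from tryptophan. In both branches a CYP79 enzyme turns the amino acid into an aldoxime, a CYP83 enzyme oxidises the aldoxime, and the shared enzymes SUR1 and UGT74B1 then form the thiohydroximate and attach glucose to it.

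Counted reads per library ranged from 1489112 to 2685718, after 79.9 to 87.0% of mapped reads had been removed for tied alignments. Values below are CPM, counts relative to library size after TMM scaling, in which 1 count was worth 0.411 to 0.831 CPM. The labelled organ was checked with fixed marker lists. Summed leaf markers were at 12200 to 17500 CPM, flower markers at 3.32 to 8.73 CPM and seed markers at 0 to 2.84 CPM. The 5 root markers summed to 24.2 to 95 CPM, most of it PYK10. In bulk tissue, fewer cells of a type and less RNA per cell cannot be told apart.

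Col-0 replicate 1 was the lowest library for 9 of the 10 genes, under TMM, DESeq2 size factors and scaling on nuclear genes. Over all genes tested, 26.3% were lowest in that library. The summed level of the 10 genes was 1190 and 1620 CPM in otp90 replicates 1 and 2, and 514 and 1260 CPM in Col-0 replicates 1 and 2. The 6 aliphatic genes spread widest, with sums of 892 and 1370 CPM in otp90, against 344 and 941 CPM in Col-0. The 2 indolic genes summed to 171 and 152 CPM in otp90, against 129 and 202 CPM in Col-0, a spread of 1.57-fold between the lowest and highest library against 3.98-fold for the aliphatic genes.

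**Figure D1:**
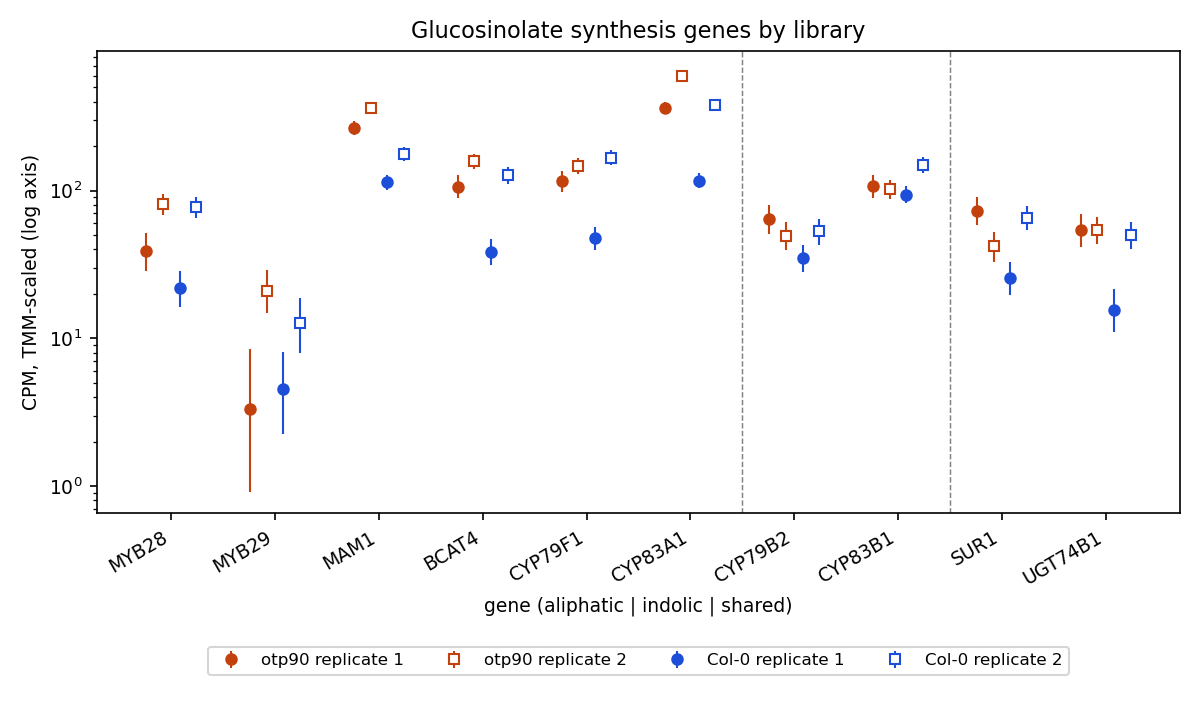
Level of each gene in each library, as TMM-scaled CPM on a log axis, with 95% Poisson intervals that cover counting error only; dashed lines separate the aliphatic, indolic and shared genes. Col-0 replicate 1 (filled blue circle) is the lowest library for every gene but MYB29, and the replicate 2 libraries (open squares) lie above both replicate 1 libraries for MYB28, MYB29, BCAT4, CYP79F1 and CYP83A1.

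The regulators come first. MYB28 (AT5G61420, chromosome 5) encodes the main transcription factor that switches on the aliphatic branch. It had 47 and 142 counts in otp90 replicates 1 and 2, and 53 and 141 counts in Col-0 replicates 1 and 2, which gave 39.1 and 80.8 CPM in otp90, against 21.8 and 77.0 CPM in Col-0. Both replicate 2 libraries were high and both replicate 1 libraries were low, and the genotypes overlapped. MYB29 (AT5G07690, chromosome 5), which acts beside MYB28 in the same branch, had 4 and 37 counts in otp90 and 11 and 23 counts in Col-0. Its levels were 3.32 and 21 CPM in otp90, against 4.52 and 12.6 CPM in Col-0, with the same split by replicate. The 4 counts of otp90 replicate 1 allow 0.906 to 8.51 CPM by a 95% Poisson interval, so that value is imprecise. Its annotated neighbour MYB76, the third regulator of this branch, had 4 counts in otp90 replicate 2 and 0 in the other libraries.

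Side-chain elongation was measured through BCAT4 and MAM1. BCAT4 (AT3G19710, chromosome 3), the aminotransferase that starts methionine chain elongation, was at 106 and 159 CPM in otp90, against 38.6 and 127 CPM in Col-0. MAM1 (AT5G23010, chromosome 5), the methylthioalkylmalate synthase that carries out the condensing step of each elongation round, was at 267 and 361 CPM in otp90, against 114 and 176 CPM in Col-0. MAM1 was 1 of 2 members, with UGT74B1, in which both otp90 libraries lay above both Col-0 libraries. Its annotated neighbour MAM3, which makes longer chains, was much lower, at 15.0 and 15.9 CPM in otp90, against 3.28 and 27.8 CPM in Col-0. MAM1 and MAM3 are related copies, so stretches that they share may have lost reads to the removal of tied alignments.

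The aliphatic core enzymes include the gene with the highest mean level of the set, CYP83A1. CYP79F1 (AT1G16410, chromosome 1), which converts chain-elongated methionine to aldoximes, was at 116 and 147 CPM in otp90, against 47.6 and 167 CPM in Col-0. Its close copy and annotated neighbour CYP79F2, which prefers long chains, was at 11.6 and 12.5 CPM in otp90, against 2.46 and 10.9 CPM in Col-0. Reads that matched both copies equally well were removed, so both may be undercounted and their ratio is uncertain. CYP83A1 (AT4G13770, chromosome 4), which oxidises the aliphatic aldoximes, had 434 and 1054 counts in otp90 and 285 and 699 counts in Col-0. Its levels were 361 and 599 CPM in otp90, against 117 and 382 CPM in Col-0, and Col-0 replicate 1 stood far below the other libraries.

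The indolic core enzymes varied least. CYP79B2 (AT4G39950, chromosome 4), which converts tryptophan to indole-3-acetaldoxime, was at 64.0 and 49.5 CPM in otp90, against 34.9 and 52.9 CPM in Col-0. CYP83B1 (AT4G31500, chromosome 4), which oxidises that aldoxime, was at 107 and 102 CPM in otp90, against 94.0 and 149 CPM in Col-0. Neither gene separated the genotypes or the replicate numbers. The shared enzymes followed Col-0 replicate 1 downwards but did not follow replicate 2 upwards in otp90. SUR1 (AT2G20610, chromosome 2), the C-S lyase, was at 73.1 and 42.1 CPM in otp90, against 25.5 and 65.5 CPM in Col-0. UGT74B1 (AT1G24100, chromosome 1), the glucosyltransferase, was at 54.0 CPM in both otp90 libraries and at 15.6 and 50.2 CPM in Col-0.

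Levels of different genes were ordered per length, as TMM-scaled CPM per kilobase of gene model. The mean over the 4 libraries was 210 for CYP83A1, 133 for MAM1, 78.7 for BCAT4, 64.8 for CYP83B1, 60.2 for CYP79F1, 38.3 for MYB28, 30.9 for SUR1, 27.7 for UGT74B1, 25.3 for CYP79B2 and 6.49 for MYB29. CYP83A1 lay above MAM1 in 4 of 4 libraries, although their ranges over libraries overlapped (67.4 to 345 and 66.0 to 209). BCAT4, CYP83B1 and CYP79F1 changed order between libraries, as did MYB28, SUR1, UGT74B1 and CYP79B2, so neighbours within these runs did not differ beyond their spread. CYP83A1 stood above 96.3% of the genes tested in mean level per length, and MYB29 above 30.2%.

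The comparison of otp90 with Col-0 asks whether the mutant differs from the wild type. By edgeR's quasi-likelihood test with Benjamini-Hochberg adjustment, 0 of the 10 genes passed an adjusted p of 0.05. The background was 0% of the 11938 genes tested (0 called), with 1.41% at an unadjusted p under 0.05. DESeq2 also called 0 genes, with 96 at an unadjusted p under 0.05. The log2 difference was positive for 9 of 10 genes with a median of 0.47, where the median of all genes was -0.01.

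MAM1 was the only member at an unadjusted p under 0.05, against 1.41% of all genes. Positive log2 differences numbered 10 when Col-0 replicate 2 was dropped, against 6 to 8 when any other library was. The median of all genes stayed between -0.07 and 0.03 in these fits. MAM1 was at 314 ± 66.7 CPM in otp90, against 145 ± 44.0 CPM in Col-0 (n = 2 each, SD). Its log2 difference was 1.11 (SE 0.47, edgeR's unadjusted p = 0.044 and adjusted p = 0.9998). The difference was alike in both replicate numbers, 1.23 in number 1 and 1.03 in number 2. With 1 library left out it ranged from 0.85 to 1.48, at an unadjusted p of 0.0239 to 0.221, and it passed the adjusted threshold in none of these fits. CYP83A1 was at 480 ± 169 CPM in otp90, against 249 ± 187 CPM in Col-0, a log2 difference of 0.95 (SE 0.62), and its 95% interval of -0.47 to 2.37 covers no difference. Dropping Col-0 replicate 1 lowered this value to 0.35, and dropping Col-0 replicate 2 raised it to 2.05. CYP83B1 was the single member with a negative difference, at 105 ± 3.44 CPM in otp90, against 122 ± 38.9 CPM in Col-0, or -0.21 on the log2 scale (SE 0.45).

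In 9 of the 10 genes the log2 difference was larger between the number 1 libraries, where Col-0 was low, than between the number 2 libraries. The median difference was 1.25 in number 1 and 0.09 in number 2. UGT74B1 differed by 1.79 in number 1 and by 0.11 in number 2. SUR1 differed by 1.52 in number 1 and by -0.64 in number 2. Both otp90 libraries lay above both Col-0 libraries in 2 of 10 genes, against 12.4% of all genes tested, and below them in 0 of 10, against 13.5%. Without Col-0 replicate 1, 6 of the 10 differences were positive, and MYB28 (-0.34), CYP79F1 (-0.33) and SUR1 (-0.18) changed sign.

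**Figure D2:**
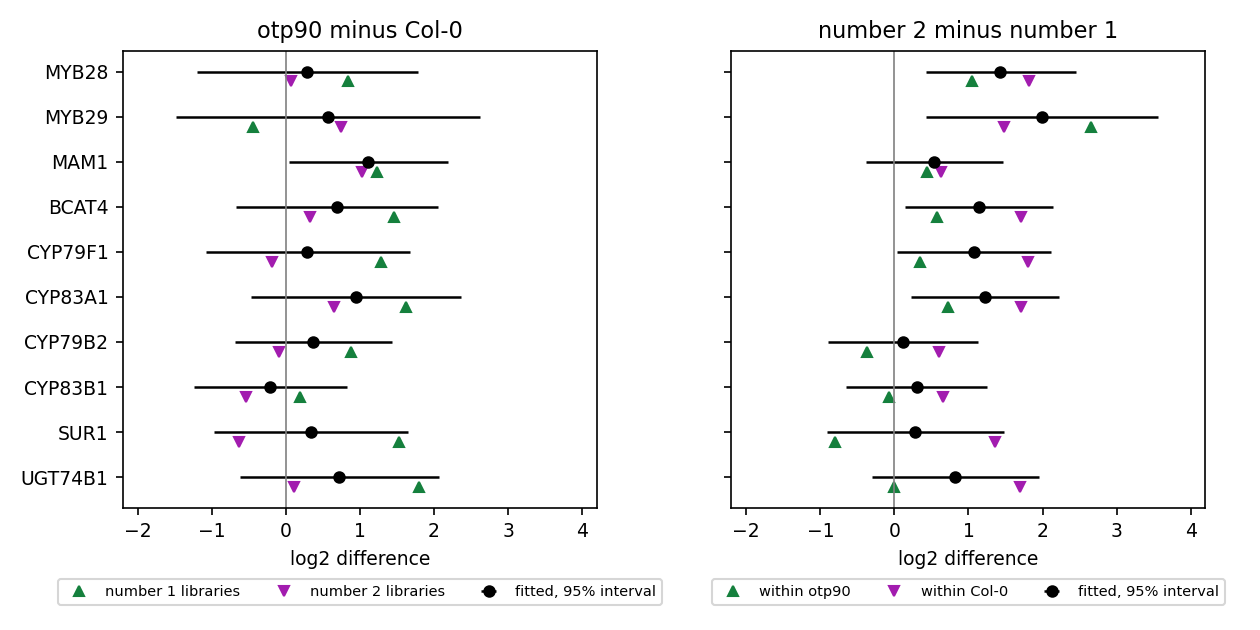
Log2 difference of each gene between genotypes (left) and between replicate numbers (right); black points are fitted values with 95% intervals, and triangles are differences between single libraries within each replicate number or genotype. MAM1 has both triangles near 1 on the left, and the 6 aliphatic genes have both triangles above 0 on the right.

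The libraries of these data also differ by the replicate number in their labels, which the labels do not explain. This is not a comparison of the study's design. With genotype as a term, 0 of the 10 genes passed the edgeR test between number 2 and number 1 at an adjusted p of 0.05, against 0.804% of the 11938 genes tested (0.0335% as higher and 0.771% as lower in number 2). At an unadjusted p under 0.05, 5 of 10 were higher in number 2 and 0 were lower, where the background over all genes was 8.76%, with 3.68% higher and 5.08% lower. The 5 were MYB28, MYB29, BCAT4, CYP79F1 and CYP83A1, all of the aliphatic branch, and in each both number 2 libraries lay above both number 1 libraries. That separation was found in 21% of all genes tested.

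MYB28 was at 30.4 ± 12.2 CPM in number 1 and 78.9 ± 2.69 CPM in number 2 (n = 2 each, SD), a log2 difference of 1.43 (SE 0.48, edgeR's adjusted p = 0.283). The difference was 1.05 within otp90 and 1.82 within Col-0. MYB29 had the largest value of the set at 1.99 (SE 0.74), with 2.66 within otp90 and 1.48 within Col-0, on the fewest counts. CYP83A1 was at 239 ± 172 and 490 ± 154 CPM, a log2 difference of 1.22 (SE 0.47), BCAT4 was at 1.14 (SE 0.47) and CYP79F1 at 1.08 (SE 0.49). MAM1, the sixth aliphatic gene, was at 0.53 (SE 0.43) with a 95% interval of -0.39 to 1.46.

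The indolic genes gave smaller values, 0.12 (SE 0.47) for CYP79B2 and 0.30 (SE 0.44) for CYP83B1. Their 95% intervals of -0.90 to 1.13 and -0.65 to 1.25 overlap those of the aliphatic genes, and the difference between branches was not tested. All 6 aliphatic genes were higher in number 2 within both genotypes, as were 3290 of the 11938 genes tested. The aliphatic medians were 0.66 within otp90 and 1.71 within Col-0. The other 4 members were not higher in both, except that scaling on nuclear genes moved 1 of them, to 7 in all. Without the genotype term, the count of 5 at an unadjusted p under 0.05 became 2. In that fit 1280 of the 11938 genes tested were at that level. Leaving out 1 library needs a fit without that term. The log2 difference then ranged from 1.02 to 1.86 for MYB28, from 1.59 to 2.39 for MYB29 and from 0.43 to 1.89 for BCAT4. It ranged from 0.45 to 1.72 for CYP79F1 and from 0.45 to 2.08 for CYP83A1. MYB28, BCAT4, CYP79F1 and CYP83A1 were highest without otp90 replicate 1, where the only number 1 library is from Col-0. These genes also passed the adjusted threshold in that fit, and no member did in the others with a library left out. Calls over all genes tested were also the most in that fit, which rests on a single number 1 library. In each fit with a library left out, 1 number is held by a single genotype, so number and genotype are partly confounded.

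Other values moved with the number 2 libraries. The root marker PYK10, a beta-glucosidase of ER bodies, was at 24.9 and 91.6 CPM in otp90, against 17.7 and 31.1 CPM in Col-0. The other 4 root markers together were at 12.5 and 3.41 CPM in otp90, against 6.57 and 7.10 CPM in Col-0, and CASP1, which marks the root endodermis, was at 0 in both otp90 libraries. The 4 leaf markers did not move together. LHCB3, an antenna protein gene, was called lower in number 2 (edgeR's adjusted p = 0.0129), at 2420 and 473 CPM in otp90, against 4730 and 379 CPM in Col-0. LHCA1, another antenna protein gene, had a difference of -1.78 (SE 0.49) and was not called. RCA, the Rubisco activase gene, was at 0.16 (SE 0.52) and GAPA, a Calvin cycle dehydrogenase gene, at 0.39 (SE 0.48). RCA (6380 CPM) and GAPA (853 CPM) were lowest in Col-0 replicate 1, as 9 of the 10 glucosinolate genes were, while LHCB3 and LHCA1 were highest there. The part of all these markers in the values of the glucosinolate genes was not tested.

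The balance between single genes of the branches can be read within a library, where no scaling enters. Other genes of the same steps are left out, so these shares are not those of whole branches. The pairs were chosen after their values were seen, so no test is given, and the gene models within each CYP pair are of nearly equal length (1735 and 1745 bases for CYP83, 1980 and 1986 for CYP79). CYP83A1 took 77.1% of the counts of CYP83A1 and CYP83B1 in otp90 replicate 1 (95% Wilson interval 73.4 to 80.4) and 85.4% in otp90 replicate 2 (83.3 to 87.3). In Col-0 it took 55.4% in replicate 1 (51.1 to 59.7) and 71.9% in replicate 2 (69.0 to 74.6). Both otp90 shares lay above both Col-0 shares, and within each genotype replicate 2 lay above replicate 1. These intervals cover counting error only.

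CYP79F1 took 64.4% and 74.8% of the counts of CYP79F1 and CYP79B2 in otp90, and 57.7% and 75.9% in Col-0. Here the genotypes overlapped and the replicate 2 libraries were again the higher. This share leaves out CYP79B3, which acts in the same step as CYP79B2. CYP79B3 had 82 and 103 counts in otp90, and 82 and 56 counts in Col-0. CYP79F1 may also be undercounted, because reads tied with CYP79F2 were removed. The sulfotransferases finish the core structure, SOT18 mainly on aliphatic and SOT16 mainly on indolic precursors. SOT18 took 71.7% and 86.6% of the counts of this pair in otp90, and 59.7% and 66.9% in Col-0. The genotypes did not overlap, but the 95% Wilson intervals of otp90 replicate 1 (62.5 to 79.4) and Col-0 replicate 2 (59.6 to 73.4) did.

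**Figure D3:**
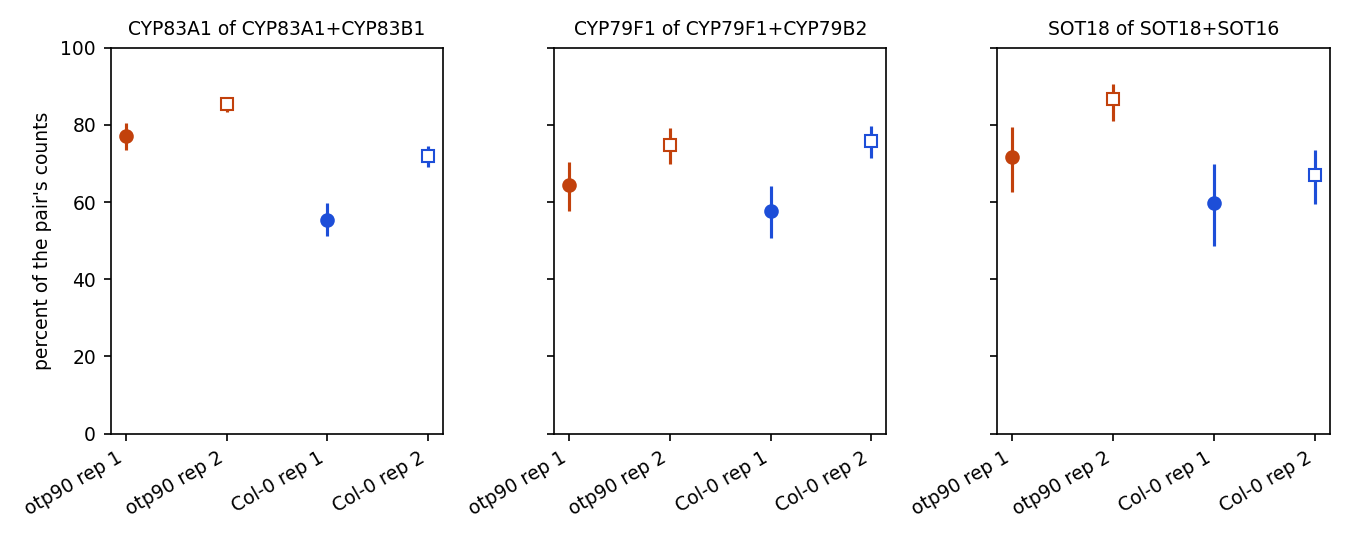
Share of the counts of each pair taken by its aliphatic gene in each library, in percent, with 95% Wilson intervals for counting error; orange is otp90, blue is Col-0, filled circles are replicate 1 and open squares replicate 2. The CYP83A1 share runs from 55.4% in Col-0 replicate 1 to 85.4% in otp90 replicate 2, and in each pair replicate 2 lies above replicate 1 of the same genotype.

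A list of 67 further genes of the pathway covered other regulators, elongation, core and side-chain enzymes, transport, breakdown, and the supply of sulfate and tryptophan, with the branch to the phytoalexin camalexin. Of these, 49 had enough counts to be tested. Between otp90 and Col-0, 0 were called by edgeR at an adjusted p of 0.05 or at an unadjusted p under 0.05, 37 had positive and 12 negative log2 differences, and the median was 0.34. Over all genes, 49.2% were positive. Both otp90 libraries lay above both Col-0 libraries in 13 of the 49 and below in 2, where the background was 12.4% and 13.5%. The smallest unadjusted p was that of CYP79B3, the partner of CYP79B2 in the same step, at 68.2 and 58.6 CPM in otp90, against 33.7 and 30.6 CPM in Col-0. Its log2 difference was 0.98 (SE 0.44, edgeR's unadjusted p = 0.0567 and adjusted p = 0.9998), with 1.02 in number 1 and 0.94 in number 2.

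The next smallest p-values were those of the S-oxygenase gene FMO GS-OX1 at 1.33 (SE 0.70), the APS reductase gene APR3 at 1.03 (SE 0.55), the glutathione transferase gene GSTU20 at 0.91 (SE 0.57), SOT18 at 0.91 (SE 0.61) and the gamma-glutamyl peptidase gene GGP1 at 0.65 (SE 0.44). None passed. The first 4 of these depended on the Col-0 libraries. In the order named, they were 0.59, 0.52, 0.38 and 0.30 when Col-0 replicate 1 was dropped, and 2.89, 1.85, 1.82 and 2.05 when Col-0 replicate 2 was. In FMO GS-OX1 the difference was 2.92 in number 1 and 0.54 in number 2, and in APR3 2.1 and 0.20. GGP1 was alike in both, at 0.64 and 0.65.

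By step, the genotype differences were positive in 6 of 6 tested genes of side-chain elongation (median 0.51), in 9 of 10 of core synthesis (0.55), in 6 of 7 of side-chain modification (0.43), and in 7 of 7 of sulfate activation and reduction (0.66). They were positive in 2 of 6 further regulators (-0.09) and in 2 of 7 breakdown genes (-0.13). In the number 1 libraries alone the medians were 1.42 for elongation, 1.25 for core synthesis, 0.88 for side-chain modification and 1.02 for the sulfate genes. In number 2 they were 0.12, 0.455, 0.44 and 0.19 in the same order. The myrosinase genes TGG1 (-0.02, SE 0.46) and TGG2 (-0.60, SE 0.55), which split glucosinolates and resemble each other closely, did not share the positive values. Among regulators, MYC2, the jasmonate-response factor that works with the MYB proteins, was at 90.6 and 125 CPM in otp90, against 175 and 55.1 CPM in Col-0, without the pattern of MYB28.

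Between number 2 and number 1, 12 of the 49 pathway genes were higher and 1 lower at an unadjusted p under 0.05, where the background was 3.68% higher and 5.08% lower. The median log2 difference was 0.54, and that of all genes was 0.03. The side-chain gene FMO GS-OX3, which oxidises the sulfur of aliphatic glucosinolates, was at 49.0 and 92.1 CPM in otp90, against 16.4 and 118 CPM in Col-0, a difference of 1.87 (SE 0.55, edgeR's adjusted p = 0.1949). IPMI SSU3, an isomerase subunit gene of the elongation cycle, was at 1.66 (SE 0.49). ESM1, a modifier of the breakdown products, was at 824 and 1570 CPM in otp90, against 303 and 1780 CPM in Col-0, or 1.74 (SE 0.53). ESM1 passed when no low-count filter was used (adjusted p = 0.03858). With 1 library left out and no genotype term, FMO GS-OX3 ranged from 1.11 to 2.68. ESM1 then ranged from 1.03 to 2.47 and IPMI SSU3 from 1.01 to 2.39. Each was highest without otp90 replicate 1 and passed the adjusted threshold there, where calls over all genes were also the most. FMO GS-OX3 also passed without otp90 replicate 2. In such fits 1 number rests on a single library. ESP, the epithiospecifier gene, was at 1.38 (SE 0.49), and APK1, a kinase gene that supplies the sulfate donor of the sulfotransferases, at 1.28 (SE 0.47).

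With all 4 libraries, the low-count filter and TMM, 1 of the 49 pathway genes was called between numbers, against 0.804% of all genes tested, and it was in the camalexin branch. CYP71A13, which turns indole-3-acetaldoxime towards camalexin and has a close copy, had 25 counts in otp90 replicate 1 and 23 in Col-0 replicate 1, with 0 and 1 in the replicate 2 libraries. The ratio of number 1 to number 2 was 47.4 with a counting interval of 8.10 to 1910 (edgeR's adjusted p = 0.04845). The call was lost with DESeq2 size factors (adjusted p = 0.0574), with nuclear genes only (0.0805) and without otp90 replicate 1 (0.195), and the DESeq2 test gave no adjusted p. Over the alternatives with a value, the adjusted p ranged from 0.000906 to 0.195. PAD3, the enzyme of the last camalexin step, was too low to be tested, with 6 and 68 counts in number 1 and 0 and 3 in number 2. CYP79B2, which makes the aldoxime for this branch and for indolic glucosinolates, did not share this pattern.

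**Figure D4:**
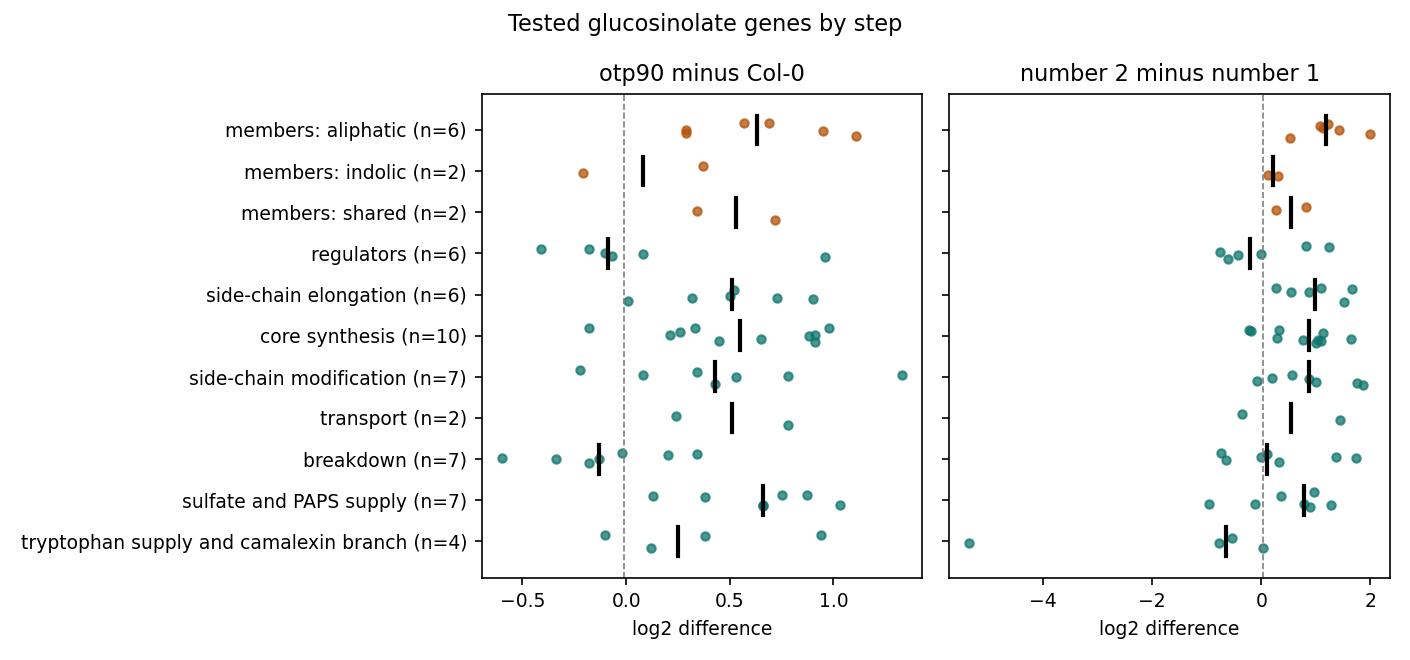
Fitted log2 differences of the tested genes by step, between genotypes (left) and replicate numbers (right); orange points are the 10 genes by branch, green points the pathway list, black bars medians, and the dashed line the median of all genes. Elongation, core and side-chain medians lie between 0.43 and 0.55 on the left and between 0.88 and 0.98 on the right, while the medians of the further regulators lie at -0.09 and -0.21.

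The mean profile of the 10 genes, as centred log2 CPM, was 0.08 and 0.52 in otp90 and -0.97 and 0.37 in Col-0. Of 5373 other genes with a mean of at least 20 CPM, the most alike over the 4 libraries were AT1G49010, RSR4 (AT5G01410, a vitamin B6 synthesis gene), UTR3 (AT1G14360, a UDP-galactose transporter gene), the nitrilase gene NIT1 (AT3G44310) and the phytoene synthase gene PSY (AT5G17230). Their root mean square differences from the profile were 0.0237, 0.0327, 0.0461, 0.0578 and 0.0585. RSR4 was at 240 and 318 CPM in otp90, against 113 and 303 CPM in Col-0. Among pathway genes the nearest was the APS kinase gene APK2, at 0.165, which ranked 69th, and among the 10 genes CYP79F1, at 0.17. The 10 genes enter the mean that they are set against. Even so, MYB29 was at 0.76, CYP83B1 at 0.488, SUR1 at 0.443 and CYP79B2 at 0.402. With 4 libraries, many genes can share a profile of this kind.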

How the data were processed

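RNA was measured in 2 otp90 and 2 Col-0 libraries. Per the labels, libraries were rRNA-depleted, stranded and single-end, made for the Ion Proton and sized at 230 bp. Per the file headers, the authors counted reads for each gene model with sam2pkm and deposited the raw counts, and reads whose best alignment scores tied were removed. The lengths of the models are deposited beside them, in bases and not as a score. Per the submitters' processing notes the reads were placed on TAIR10. No source used here gives the aligner or says whether counting used strand. Reads of overlapping or antisense genes may therefore be shared. Names came from a TAIR10.1 table by locus tag (32835 of 33602 matched). Its build differs, so no coordinates or sequences are given.

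The tests used edgeR 4.0.16 under R 4.3.3. The 15 rRNA models were left out, filterByExpr kept 11938 genes, and libraries were scaled by TMM. Two-sided quasi-likelihood tests across all genes compared genotypes without a block, and replicate numbers with genotype as a term, with Benjamini-Hochberg adjustment at 0.05. Standard errors came from the fold change and the F statistic. Replicates were distinct libraries (chi-square per degree of freedom 14.4 in otp90 and 23.7 in Col-0). The alternatives were DESeq2 1.42.0 size factors, its Wald test, no low-count filter, nuclear genes only, a replicate block or no genotype term, and each library left out. Members and lists were chosen with earlier results of these data known. The text names all members, called pathway genes, and the 6 pathway genes with the smallest p per comparison. CYP79F2, MAM3, MYB76, SOT16, TGG1, TGG2, MYC2, PAD3 and APK2 were named after their values were seen.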

Additional observations from a re-analysis of the deposited data

Results flagged for a closer look

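For 3 of the 10 genes the difference between number 2 and number 1 went opposite ways in the 2 genotypes, which flagged them. SUR1 was at -0.80 (log2) in otp90 and 1.36 in Col-0, CYP79B2 at -0.37 and 0.60, and CYP83B1 at -0.07 and 0.66. Each value compares 1 library with 1 other, and the difference between genotypes was not tested.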

How the results depend on the processing

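Between genotypes, 0 genes were called under DESeq2 size factors, the DESeq2 test, no filter and nuclear genes only, and 0 to 33 with 1 library left out (24 when otp90 replicate 1 was dropped, 30 for Col-0 replicate 1 and 33 for Col-0 replicate 2), none of them among the 10 genes. The replicate block also gave 0 calls, with 257 genes at an unadjusted p under 0.05 against 168 without it. The members at that level were then 2, MAM1 (1.13, edgeR's unadjusted p = 0.0211, adjusted p = 0.9999) and CYP83A1 (1.13, unadjusted p = 0.0284, adjusted p = 0.9999), against 1 without the block. Deviations of same-numbered libraries correlated at 0.217, but 2 pairs cannot show that the numbers pair the samples. Between replicate numbers, the 96 calls became 214 without a filter and 113 without the genotype term. Against those 113, fits without that term gave 178, 207, 209 and 511 calls with otp90 replicate 2, Col-0 replicate 1, Col-0 replicate 2 and otp90 replicate 1 left out in turn, an alternative added after the data were seen. The low-count filter then kept 13334 to 13694 genes, so the set tested also differed. With 1 library left out, the genotype difference of 5 genes took both signs: SUR1 from -0.18 to 1.18, MYB28 from -0.34 to 1.48, MYB29 from -1.29 to 1.48, CYP79F1 from -0.33 to 1.48 and CYP83B1 from -0.49 to 0.17. The number difference did so for MAM1 (-0.15 to 1.25), CYP79B2 (-0.32 to 0.56), SUR1 (-0.44 to 1.08) and UGT74B1 (-0.05 to 1.74). The cause was not tested. Under the settings that keep all 4 libraries, no member changed sign or passed the test in either comparison, and DESeq2 gave MYB29 no adjusted p between numbers. Depth limits MYB29 most, with 4 to 37 counts.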
